A study of Mus musculus with 9 samples.

Results

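The genes that make cholesterol and fatty acids were followed through 3 kinds of mouse cells. The set held 32 genes, chosen by name as sterol synthesis enzymes, controllers of the SREBP transcription factors and fatty acid synthesis enzymes. Each gene was represented by its probe set (a group of oligonucleotides on the array for 1 transcript) with the highest mean over the 9 arrays, and 31 of the 32 genes had a probe set that names 1 gene. All 31 passed the filter on low values and were tested among 12559 genes out of 18193 measured. Acat2, a cytosolic thiolase that joins acetyl units at the head of the pathway, had no such probe set and has no value here.

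The induced cells (CiCM, cardiomyocyte-like cells made with chemicals) started as mouse embryonic fibroblasts and beating clusters were picked on day 24. Their cocktail held 10 µM CHIR99021 (a GSK3 inhibitor), 10 µM RepSox (a TGF-beta receptor inhibitor), 50 µM Forskolin (an activator of adenylyl cyclase), 0.5 mM VPA (a histone deacetylase inhibitor), 5 µM Parnate (an inhibitor of monoamine oxidases and LSD1) and 1 µM TTNPB (a retinoic acid receptor agonist). Cardiomyocytes (CM) were isolated from mouse hearts, with no age or strain given in the labels. Mouse embryonic fibroblasts (MEF), the starting cells, came from C57BL/6 embryos at embryonic day 13.5 and had no cocktail. Each group had 3 samples that the labels call biological replicates, with 1 Affymetrix array each. CiCM and CM are bulk samples of picked clusters and isolated heart cells, so fewer cells of a type and less RNA per cell cannot be told apart.

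Cells build cholesterol from acetyl units through mevalonate, farnesyl diphosphate, squalene and lanosterol. SREBP-2, encoded by Srebf2, is known as the main activator of these enzyme genes, and SREBP-1, encoded by Srebf1, as an activator of fatty acid genes. SCAP escorts both factors out of the endoplasmic reticulum when sterols run low, and INSIG proteins hold them back when sterols are plentiful. Heart muscle mostly burns fatty acids, while dividing cells in culture build sterols and fatty acids for new membranes.

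SREBPs are known to act at proximal promoters together with NF-Y, a factor that binds CCAAT boxes, so some promoters are shown here. RefSeq (GRCm38.p6) gave promoter windows for 25 of the 32 genes, 31 windows in all, and the 250 bases before each start were searched on both strands. The letters TCACNCCAC, a classic sterol regulatory element, were found in 1 of 31 windows (3.23%), that of Hmgcs1, against 1.05% of 32851 windows of all genes. The letters CCAAT were found in 20 of 31 windows (64.5%), or in 19 of 25 genes, against 33.9% of all windows. These are matches of letters, with no test and no binding measured. The 150 bases before the start are printed 5′ to 3′ for 4 sterol genes that were lower in CM and for Fasn. Both motifs are in capitals (ATTGG is CCAAT on the other strand). The genes printed were picked among those with a motif. Fads2 and Scap, also called lower in CM, held neither motif. Mvk, Ggps1 and Hsd17b7, not called in CM against MEF, held CCAAT boxes. The stretches are chr13:119690201-119690350 (plus strand), chr13:8885456-8885605 (plus strand), chr5:4104698-4104847 (minus strand), chr8:64733579-64733728 (minus strand) and chr11:120824548-120824697 (minus strand).
Hmgcs1: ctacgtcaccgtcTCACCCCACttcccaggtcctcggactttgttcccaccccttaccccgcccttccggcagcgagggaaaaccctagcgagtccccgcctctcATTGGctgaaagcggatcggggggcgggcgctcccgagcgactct
Idi1: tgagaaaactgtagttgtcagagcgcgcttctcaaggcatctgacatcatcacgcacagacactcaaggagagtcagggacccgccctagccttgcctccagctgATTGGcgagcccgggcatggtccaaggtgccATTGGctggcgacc
Cyp51: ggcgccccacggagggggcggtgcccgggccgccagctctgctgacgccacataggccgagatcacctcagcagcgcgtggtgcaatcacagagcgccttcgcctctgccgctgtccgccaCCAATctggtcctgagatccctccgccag
Msmo1: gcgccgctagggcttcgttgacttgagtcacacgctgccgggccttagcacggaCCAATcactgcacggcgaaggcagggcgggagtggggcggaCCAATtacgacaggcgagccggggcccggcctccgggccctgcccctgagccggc
Fasn: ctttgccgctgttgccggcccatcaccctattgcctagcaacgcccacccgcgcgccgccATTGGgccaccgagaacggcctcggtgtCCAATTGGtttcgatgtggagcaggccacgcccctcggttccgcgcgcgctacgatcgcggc
The sterol element of Hmgcs1 began at position -137 from the start and the only CCAAT box in the bases shown at -45, with others farther out at -176 and -237. The box of Cyp51 began at -29 and those of Idi1 at -14 and -45. Msmo1 had boxes at -55 and -96, with another farther out at -160. In Fasn, CCAATTGG holds the motif on both strands, overlapping, at -62 and -59, and a further box lies at -90.

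Values are log2 signals scaled by the authors with MAS5, where a difference of 1 is a doubling. Levels of different genes come from different probes and are not compared. A gene was called where the limma adjusted p was under 0.05 and the log2 difference at least 1. Arrays of a group correlated across genes at a mean r of 0.967 in CiCM, 0.940 in CM and 0.973 in MEF. Heart markers such as Myh6 stood at 15.41 to 15.94 in CM, and all 10 listed heart markers were called higher in CM than in MEF. In CiCM 7 of the 10 heart markers were called higher than in MEF, with Tnnt2 at a mean of 14.50 and Myh6 at 7.13, and 9 of the 10 were called lower than in CM. All 8 skeletal muscle markers were also called higher in CiCM than in MEF, with Myod1 at 10.09 to 10.22. With arrays centred on their medians, the CM minus MEF differences of all genes shifted by -0.37, and with arrays levelled on hybridisation controls by -0.80, so that 21.4% in place of 50.4% of calls were higher. For that reason the medians of the 31 genes over all 9 arrays are given beside the median of all tested genes. With arrays levelled on controls these medians were -1.84 and -0.88 for CM minus MEF.

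In these genes the first CM replicate differed from its group. CM replicate 1 was the highest CM array for 25 of 31 genes (80.6%), against 37.3% of all tested genes. Among the 8 fatty acid synthesis genes it was highest for all 8, with a median distance of 2.50 from the mean of the other CM arrays (range 0.57 to 5.23), against 0.02 over all tested genes. The fat cell markers Adipoq (adiponectin) and Cidec (a lipid droplet protein) moved with it. Adipoq stood at 13.50 on CM replicate 1, against 6.21 and 5.09 on replicates 2 and 3. Cidec stood at 10.70, against 1.81 and 0.00, and Retn (resistin) at 11.89, against 5.10 and 6.83. Of 8 listed fat cell markers 6 were measured, and 5 were highest on CM replicate 1 among the CM arrays. Their summed linear signal was 50300 on CM replicate 1 and 38200 and 39300 on the other CM arrays, 229 to 422 in CiCM and 2130 to 2290 in MEF. Most of that sum was Fabp4, which endothelial cells also express, and without it the sums were 17600 on CM replicate 1, 447 and 391 on replicates 2 and 3, 104 to 137 in CiCM and 120 to 158 in MEF. Of the 10 listed heart markers 2 were also highest on CM replicate 1 among the CM arrays. Myl7 stood at 15.05 there, against 9.25 and 5.98, and Nppa at 15.24, against 12.50 and 12.05. The part of fat cells in the results was not tested, nor was that of other differences of this array. Total counts of calls among the 31 genes that rest on CM are given with and without replicate 1. So are single genes of the 31 whose call changed.

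**Figure D1:**
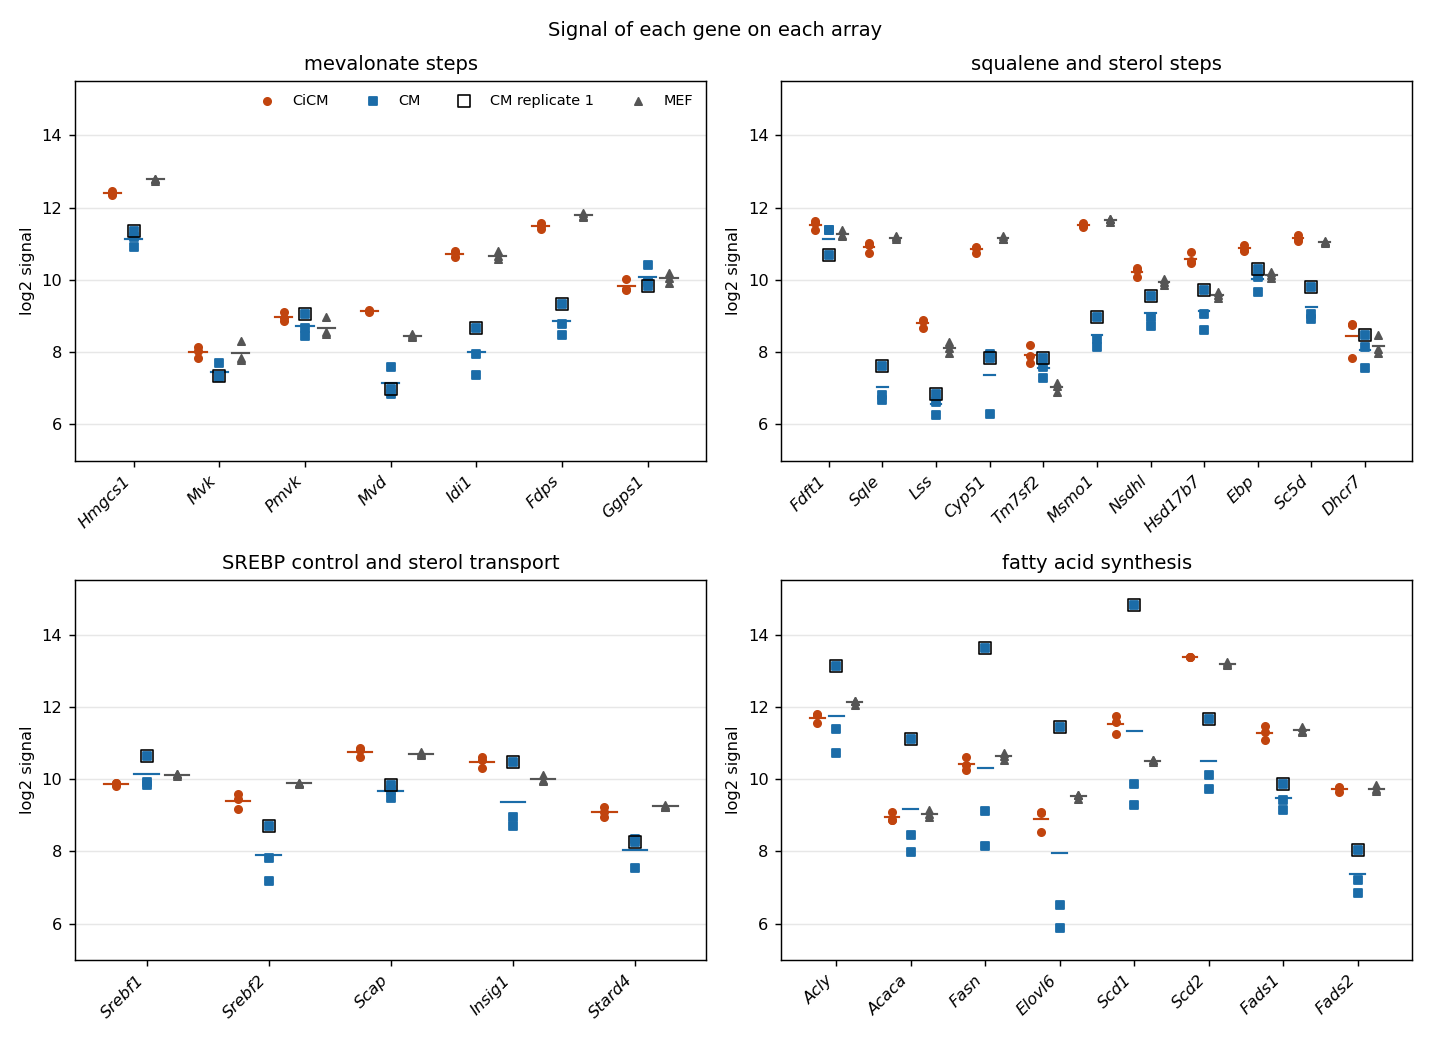
The log2 signal of each of the 31 genes (vertical axis) is plotted on every array for CiCM (circles), CM (squares, replicate 1 outlined) and MEF (triangles), with group means as bars, in 4 panels by role. Sterol genes such as Sqle, Cyp51, Msmo1, Fdps and Idi1 lie low in all 3 CM arrays, while CM replicate 1 lies above every other array for Fasn, Scd1, Acaca and Elovl6.

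The first comparison asked whether the induced cells had left the level of lipid synthesis genes of the fibroblasts they came from. None of the 31 genes was called in CiCM against MEF, against 23.8% of all 12559 tested genes called in either direction (limma, 3 arrays a group). At an unadjusted limma p under 0.05, 5 genes were higher and 1 was lower, while 57.5% of all tested genes passed in either direction. Differences ran between -0.64 for Elovl6 and 1.00 for Scd1, with a median of 0.03 over the 31 genes and -0.03 over all tested genes. Dimmer probe sets above the filter differed by -1.22 for Elovl6 and -1.05 for Acly, with no test of their own. Without the minimum difference of 1, 5 genes passed as higher (24.2% of all tested genes did) and 1 as lower (27.8%).

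The 5 genes that were higher by under 1 all lie on the sterol route. Hsd17b7, a ketosteroid reductase of the demethylation steps, stood at 10.51, 10.46 and 10.78 in CiCM and at 9.59, 9.67 and 9.51 in MEF. It was higher by 0.99 ± 0.23 (SE, limma adjusted p = 0.00420), with no overlap between the groups. Its dimmer probe sets above the filter differed by 0.44 and 0.50, with no test of their own. Tm7sf2, a sterol reductase, stood at 7.90, 8.20 and 7.69 in CiCM and at 7.05, 6.90 and 7.15 in MEF, higher by 0.90 ± 0.23 (limma adjusted p = 0.00686). Ebp, the sterol isomerase, stood at 10.83, 10.81 and 10.97 in CiCM and at 10.13, 10.22 and 10.05 in MEF, higher by 0.73 ± 0.15 (limma adjusted p = 0.00186). In all these genes every CiCM array lay above every MEF array. Lss, which closes the sterol rings as lanosterol synthase, was higher by 0.68 ± 0.20 (limma adjusted p = 0.0141), though its other probe set above the filter differed by -0.46. Mvd, the mevalonate diphosphate decarboxylase, stood at 9.14, 9.11 and 9.16 in CiCM and at 8.43, 8.49 and 8.44 in MEF, higher by 0.68 ± 0.20 (limma adjusted p = 0.0140). Hmgcs1, the HMG-CoA synthase near the head of the pathway, was the gene that was lower, at 12.35, 12.47 and 12.39 in CiCM and 12.74, 12.80 and 12.79 in MEF (-0.37 ± 0.11, limma adjusted p = 0.0125).

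On their brightest probe sets the other sterol genes differed by at most 0.48 between CiCM and MEF and did not pass the adjusted p. Dimmer probe sets above the filter differed more for Sc5d (1.31) and Stard4 (-1.50 and -0.70). They also did for Cyp51 (-0.62 and -0.72) and Ggps1 (-0.49 and -0.57). These dimmer probe sets had no test of their own. Sqle, squalene epoxidase, stood at 10.73, 10.96 and 11.03 in CiCM and 11.20, 11.18 and 11.13 in MEF (-0.26, limma adjusted p = 0.321). Msmo1, the methyl sterol oxidase, stood at 11.46, 11.52 and 11.58 in CiCM and 11.69, 11.61 and 11.69 in MEF (-0.14, limma adjusted p = 0.517). For both genes the CiCM arrays lay just below the MEF arrays with no overlap. Cyp51, the lanosterol demethylase, differed by -0.31, Idi1, the isopentenyl diphosphate isomerase, by 0.05 and Fdps, the farnesyl diphosphate synthase, by -0.28. Srebf2 differed by -0.48 ± 0.30 (SE, limma adjusted p = 0.209), Srebf1 by -0.26, Scap by 0.05, Insig1 by 0.48 and Stard4, a sterol carrier, by -0.15. Across all 31 genes, 21 had no overlap between the CiCM and MEF arrays (11 above, 10 below), or 67.7%, against 68.5% of all tested genes.

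Fatty acid genes did not pass in the fit of all 9 arrays either. Scd1, the stearoyl-CoA desaturase of liver and fat, stood at 11.24, 11.57 and 11.74 in CiCM and 10.52, 10.48 and 10.53 in MEF. Every CiCM array lay higher, by 1.00 ± 1.10 (SE, limma adjusted p = 0.472), where the spread of the CM arrays enters the error of the shared fit. Without CM replicate 1 Scd1 was called higher (1.00, limma adjusted p = 0.000316), and with only CiCM and MEF in the fit as well (1.00, adjusted p = 3.45e-05). The dimmer Scd1 probe set went the other way, with means of 7.60 in CiCM and 8.37 in MEF. Fasn, the fatty acid synthase, stood at 10.38, 10.24 and 10.61 in CiCM and 10.64, 10.71 and 10.53 in MEF, and the groups overlapped. Acaca, the acetyl-CoA carboxylase that makes the building block for Fasn, differed by -0.10 and Acly, the citrate lyase that supplies acetyl units, by -0.41. The desaturases Scd2, Fads1 and Fads2 differed by 0.19, -0.08 and -0.02. Without CM replicate 1, 1 gene was called higher (11.9% of tested genes) and 0 lower (12.5%). Without the minimum difference as well, 9 genes passed as higher (26.4% of tested genes) and 6 as lower (30%). The 9 were Hsd17b7, Tm7sf2, Ebp, Lss, Mvd, Fdft1, Nsdhl, Insig1 and Scd1. The 6 were Hmgcs1, Fdps, Srebf1, Srebf2, Elovl6 (-0.64, limma adjusted p = 0.0223) and Acly (-0.41, limma adjusted p = 0.0341). For Elovl6 and Acly every CiCM array lay below every MEF array. One gene was called higher without any 1 of the CiCM arrays or without MEF replicate 2, and it was Hsd17b7 (1.03 to 1.05) or, without CiCM replicate 3, Tm7sf2 (1.02).

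Markers of dividing cells moved between these groups. Their summed linear signal over 7 measured genes was 434 to 615 in CiCM and 12500 to 14000 in MEF, and all 7 were called lower in CiCM. The 8 macrophage markers were called lower too. Of the 8 fibroblast markers Lum (2.84) and Dcn (1.46) were called higher and Thy1 (-1.76) lower in CiCM, and their sum, set mostly by collagens, was 106000 to 111000 in CiCM and 95300 to 97300 in MEF. The part of these cells in the sterol gene values was not tested.

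Cells isolated from the heart were then set against fibroblasts. In CM 15 of 31 genes were called lower than in MEF (48.4%), against 21.8% of all tested genes, and none was called higher, against 22.1%. The median difference was -1.04 over the 31 genes and -0.03 over all tested genes. Of 7 mevalonate genes 4 fell, of 11 squalene and sterol genes 5 fell, of 5 control and transport genes 3 fell and of 8 fatty acid genes 3 fell. Without CM replicate 1, 20 genes were called lower (23% of tested genes) and the median was -1.23, against -0.03 over all tested genes. The CM and MEF arrays did not overlap for 18 genes (58.1%), 17 lower and 1 higher in CM, against 75.2% of all tested genes.

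The mevalonate steps fell at Hmgcs1, Mvd, Idi1 and Fdps. Hmgcs1 stood at 11.34, 10.90 and 11.18 in CM, against 12.74, 12.80 and 12.79 in MEF (-1.64 ± 0.11, SE, limma adjusted p = 1.92e-07). Idi1 stood at 8.67, 7.38 and 7.96 in CM, against 10.65, 10.79 and 10.58 in MEF (-2.67 ± 0.25, limma adjusted p = 3.94e-06). Fdps, whose product feeds both sterols and protein prenylation, stood at 9.33, 8.47 and 8.78 in CM, against 11.84, 11.77 and 11.74 in MEF (-2.92 ± 0.18, limma adjusted p = 1.21e-07). Every CM array lay below every MEF array in these genes. Mvd stood at 6.99, 7.60 and 6.84 in CM, against 8.43, 8.49 and 8.44 in MEF (-1.31, limma adjusted p = 0.000142). The kinases differed less, with Mvk at 7.45 ± 0.22 in CM and 7.98 ± 0.30 in MEF (SD, 3 arrays each). The limma adjusted p of Mvk was 0.0448, with the difference under the minimum, and 0.097 without CM replicate 1. Pmvk stood at 8.73 ± 0.31 in CM and 8.68 ± 0.25 in MEF (limma adjusted p = 0.830). A second, dimmer Mvk probe set differed by -2.48. Ggps1, which makes the geranylgeranyl chain for protein prenylation, stood at 10.07 ± 0.31 in CM and 10.05 ± 0.15 in MEF (SD over 3 arrays, with a limma adjusted p of 0.920). Dimmer Ggps1 probe sets above the filter differed by -0.93, -0.85 and 0.15, with no test of their own.

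After farnesyl diphosphate the differences split by step. Fdft1, the squalene synthase that opens the sterol branch, stood at 10.69, 11.37 and 11.37 in CM and 11.24, 11.38 and 11.20 in MEF, and the groups overlapped (-0.13, limma adjusted p = 0.497). Its dimmer probe set above the filter differed by -0.67, with no test of its own. Sqle, a known rate-controlling enzyme that adds oxygen to squalene, stood at 7.61, 6.82 and 6.68 in CM, against 11.20, 11.18 and 11.13 in MEF. It was 17.5-fold lower (-4.13 ± 0.21, SE, limma adjusted p = 3.57e-08), the largest fall among the 31 genes, with all CM arrays far below MEF. Cyp51 stood at 7.83, 7.96 and 6.29 in CM, against 11.13, 11.13 and 11.21 in MEF, 13.9-fold lower (-3.80 ± 0.35, limma adjusted p = 2.88e-06). Msmo1 stood at 8.96, 8.36 and 8.14 in CM, against 11.69, 11.61 and 11.69 in MEF, 9.04-fold lower (-3.18 ± 0.17, limma adjusted p = 5.62e-08). These genes encode oxygen-consuming enzymes, as does Sc5d, the sterol desaturase, at 9.79, 9.06 and 8.91 in CM and 11.03, 11.08 and 11.04 in MEF (-1.80, limma adjusted p = 7.99e-06). The second Sc5d probe set above the filter went the other way (0.50), and Sc5d was not called when its probe sets were averaged (-0.33). Lss stood at 6.83, 6.61 and 6.27 in CM, against 7.98, 8.12 and 8.27 in MEF (-1.55, limma adjusted p = 3.88e-05).

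Reductases and isomerases of the late steps moved less. Nsdhl, a sterol dehydrogenase, stood at 9.08 ± 0.42 in CM and 9.94 ± 0.08 in MEF (SD, n = 3), a difference of -0.86 that passed the limma adjusted p (0.00145) but not the minimum, and it was called without CM replicate 1 (-1.09). Hsd17b7 differed by -0.47 (limma adjusted p = 0.0910), Ebp by -0.12 (0.493) and Tm7sf2 by 0.54 (0.0523). Without CM replicate 1 Hsd17b7 differed by -0.76 (limma adjusted p = 0.000968), still under the minimum. Dhcr7, which makes the last double-bond reduction to cholesterol, stood at 8.48, 8.13 and 7.56 in CM and 8.47, 8.09 and 7.97 in MEF, with overlap (-0.12, limma adjusted p = 0.728).

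The control genes differed by factor. Srebf2 stood at 8.70, 7.18 and 7.82 in CM, against 9.86, 9.90 and 9.90 in MEF, 3.97-fold lower (-1.99 ± 0.30, SE, limma adjusted p = 0.000162). A second, dimmer Srebf2 probe set above the filter differed by -0.82, with no test of its own. Srebf1 stood at 10.64, 9.85 and 9.91 in CM and 10.13, 10.08 and 10.13 in MEF, and the groups overlapped (0.02, limma adjusted p = 0.932). Every CM array lay below MEF for Srebf2, and CM replicate 1 lay above MEF for Srebf1. Scap stood at 9.85, 9.47 and 9.69 in CM, against 10.69, 10.68 and 10.74 in MEF (-1.04, limma adjusted p = 1.26e-05). That difference is at the threshold, and the call was lost with quantile normalization (-0.95) or without CM replicate 2 (-0.94). Insig1, itself a known SREBP target, stood at 10.47, 8.94 and 8.71 in CM and 9.94, 10.10 and 9.98 in MEF (-0.63, limma adjusted p = 0.139). Its CM replicate 1 lay above MEF and the others below, and without that array it was called lower (-1.18, limma adjusted p = 9.30e-06). Stard4, a known target of SREBP-2 that carries sterol between membranes, stood at 8.25, 8.34 and 7.54 in CM, against 9.23, 9.23 and 9.27 in MEF (-1.20, limma adjusted p = 0.000292, or -0.95 and not called without CM replicate 3). With a constant larger than 32 added to the linear signals, Mvd (-0.82), Lss (-0.86), Stard4 (-0.90) and Scap (-0.93) kept adjusted p-values under 0.05 but missed the minimum difference.

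**Figure D2:**
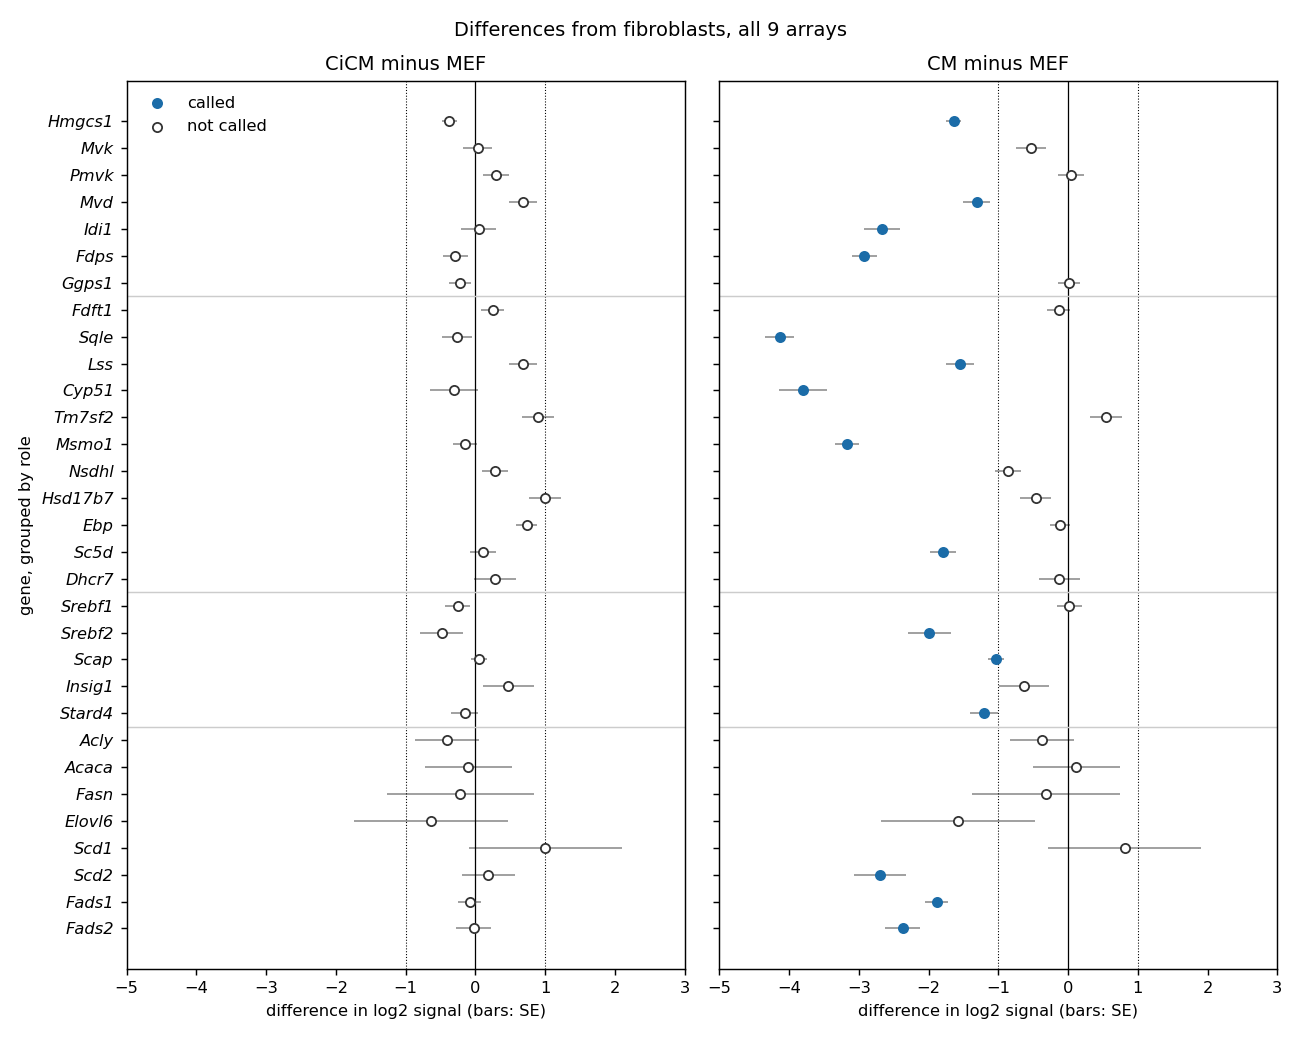
Differences in log2 signal from MEF (horizontal axis, bars SE, dotted lines at -1 and 1) are shown for CiCM on the left and CM on the right, 1 row per gene in order of role, filled where called. No CiCM point is filled, while 15 CM points are filled, all left of zero, with Sqle at -4.13 the lowest.

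Among the fatty acid genes, 3 of the 4 desaturases fell, and the calls of Fasn, Elovl6 and Acly depended on CM replicate 1. Scd2, the desaturase of brain and embryonic tissue, stood at 11.67, 9.73 and 10.11 in CM, against 13.17, 13.24 and 13.18 in MEF (-2.70 ± 0.38, SE, limma adjusted p = 8.05e-05). Fads1 and Fads2, which desaturate polyunsaturated chains, fell too, with differences of -1.88 and -2.37 (limma adjusted p = 2.38e-06 and 8.78e-06). All CM arrays lay below all MEF arrays for these 3 genes. Fasn stood at 13.64, 8.16 and 9.11 in CM, against 10.64, 10.71 and 10.53 in MEF. Scd1 stood at 14.81, 9.87 and 9.29 in CM, against 10.52, 10.48 and 10.53 in MEF. Acaca stood at 11.10, 7.97 and 8.44 in CM, against 9.15, 8.95 and 9.04 in MEF. In each of them replicate 1 lay above MEF and the other CM arrays below. Elovl6, which lengthens the product of Fasn, stood at 11.44, 6.53 and 5.88 in CM, against 9.57, 9.45 and 9.56 in MEF, and Acly at 13.14, 10.71 and 11.38, against 12.15, 12.15 and 12.06. With all arrays the limma adjusted p was 0.797 for Fasn, 0.525 for Scd1, 0.871 for Acaca, 0.224 for Elovl6 and 0.482 for Acly. Without CM replicate 1, 6 in place of 3 of the 8 genes were called lower. Fasn then differed by -1.99 (limma adjusted p = 1.67e-05), Elovl6 by -3.32 (3.39e-07) and Acly by -1.07 (0.000162), while Scd1 (-0.93) and Acaca (-0.85) passed the adjusted p but not the minimum difference.

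**Figure D3:**
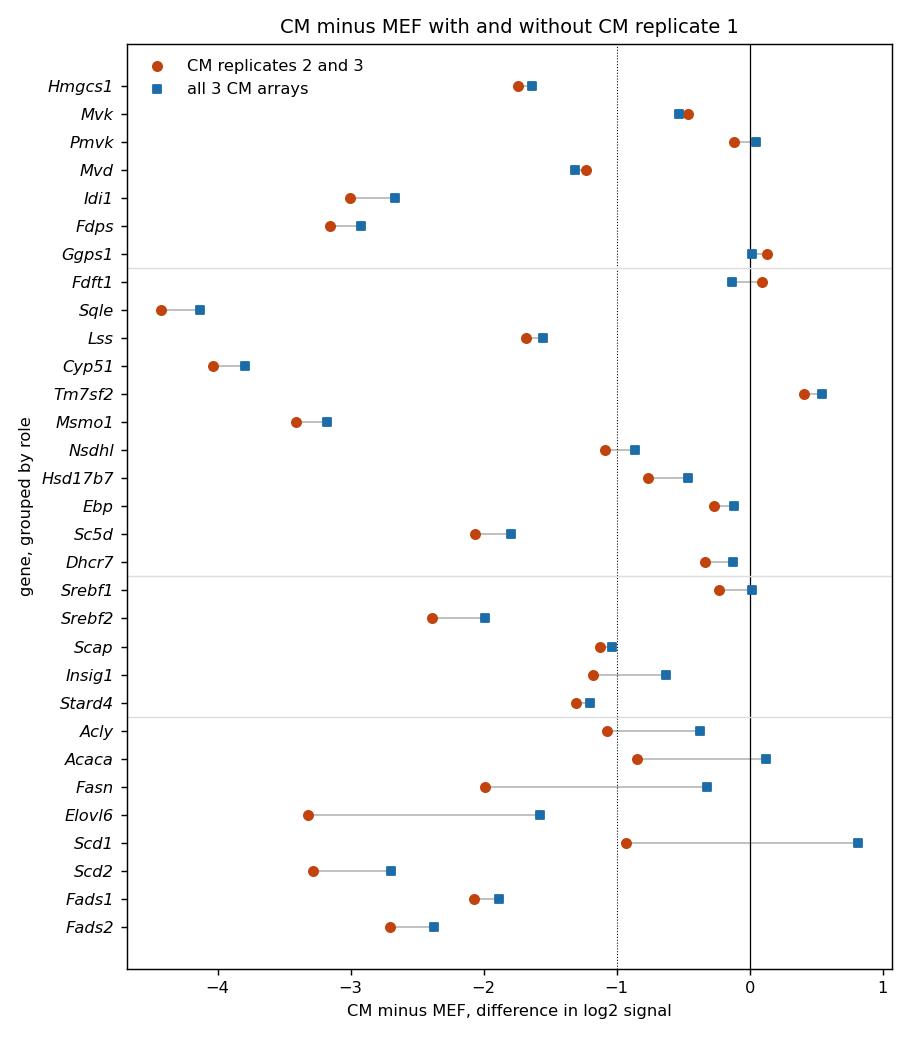
The CM minus MEF difference in log2 signal (horizontal axis) is shown for each gene with CM replicates 2 and 3 (circles) and with all 3 CM arrays (squares), joined by a line. The lines are short for most sterol genes, such as Sqle at -4.42 and -4.13, and long for Scd1, Elovl6 and Fasn.

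**Figure D4:**
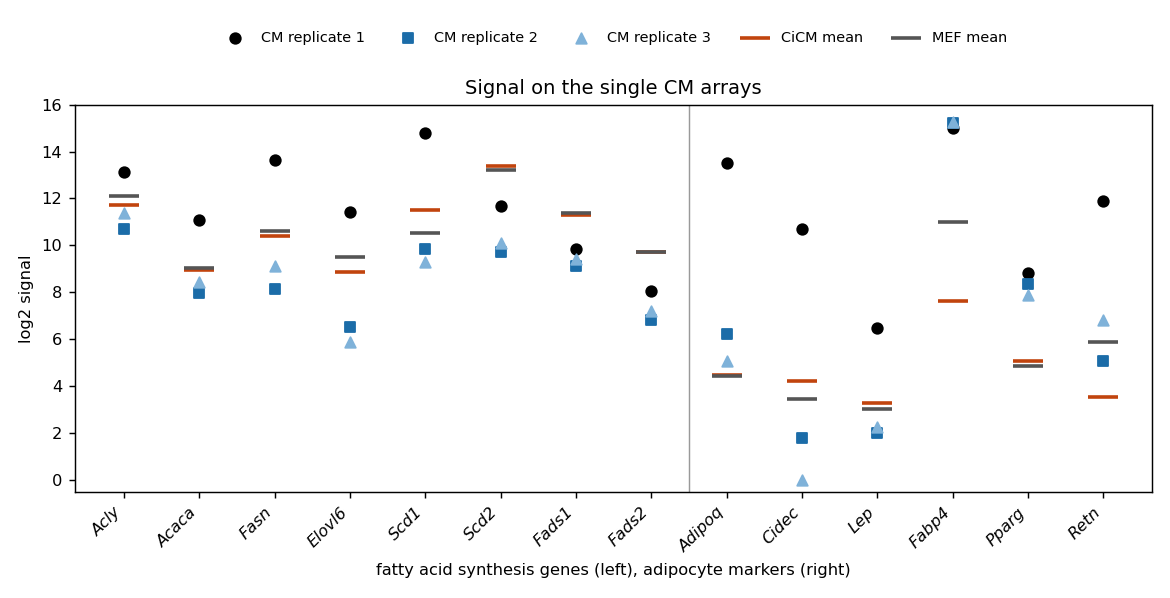
The log2 signal (vertical axis) on each CM array is shown for the 8 fatty acid synthesis genes and 6 fat cell markers, with the CiCM and MEF means as bars. Fasn, Elovl6, Scd1, Adipoq, Cidec and Retn are high on replicate 1 alone, while Fabp4 is near 15 on all CM arrays.

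Other cells differed between CM and MEF as well. Of the 7 dividing cell markers 6 were called lower in CM, with summed linear signals of 2490 to 2830 in CM and 12500 to 14000 in MEF. The 6 endothelial markers were all higher in CM, with sums of 11100 to 12300 in CM and 426 to 682 in MEF. Of the 8 fibroblast markers 6 were called lower in CM than in MEF, while Lum (3.08) and Dcn (1.92) were called higher. Fibroblast markers summed to 36400 to 47900 in CM and 95300 to 97300 in MEF. Macrophage markers summed to 11600 to 13700 in CM and 12800 to 13200 in MEF. The part of these cell types in the lower sterol genes was not tested.

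Between the induced cells and native heart cells, many sterol genes differed. In CiCM 18 of 31 genes were called higher than in CM (58.1%), against 16.5% of all tested genes, and none was called lower, against 19%. The median difference was 1.11 over the 31 genes and -0.03 over all tested genes. Without CM replicate 1, 21 were called higher (17.7% of tested genes), with a median of 1.76, against -0.04 over all tested genes. For 20 genes (64.5%) every CiCM array lay above every CM array, against 67.9% of all tested genes that did not overlap in either direction. This comparison shares the CM arrays with the one above, so it is no second test of their level. Sqle was higher in CiCM by 3.87 ± 0.21 (SE, limma adjusted p = 1.15e-07), Cyp51 by 3.49 ± 0.35 (8.55e-06) and Msmo1 by 3.03 ± 0.17 (1.55e-07). Hsd17b7 and Nsdhl, not called in CM against MEF, were higher in CiCM than in CM by 1.46 and 1.14 (limma adjusted p = 0.000244 and 0.000257). Dimmer Hsd17b7 probe sets above the filter differed by 0.86 and 0.48, and Hsd17b7 was not called when its probe sets were averaged (0.70). Mvd was higher by 1.99, Lss by 2.23, Hmgcs1 by 1.27, Idi1 by 2.72, Fdps by 2.64 and Sc5d by 1.90. Srebf2 was higher by 1.50 ± 0.30 (limma adjusted p = 0.00140), Scap by 1.09 and Stard4 by 1.05. The second Srebf2 probe set differed by 0.44, and Srebf2 was not called when its probe sets were averaged (0.97). Averaging also cost the calls of Msmo1 (0.52), Fdps (1.29, limma adjusted p = 0.0748), Hmgcs1 (0.77), Sc5d (0.92), Fads1 (0.78) and Scap (-0.59). For all of these but Fads1 it brings in a dim probe set under the filter. Mvk was then called higher (1.48).

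Insig1 stood at 10.31, 10.53 and 10.60 in CiCM and 10.47, 8.94 and 8.71 in CM, higher by 1.11 (limma adjusted p = 0.0199). CM replicate 1 lay among the CiCM arrays, and the call was lost without CiCM replicate 2 or 3 or CM replicate 2 or 3 (differences of 1.08, 1.05, 0.89 and 0.77). Nsdhl and Scap lost their calls without CM replicate 2 (0.97 and 0.99), and Stard4 without CiCM replicate 3 or CM replicate 3 (0.98 and 0.79). Scd2, Fads1 and Fads2 were higher in CiCM than in CM by 2.88, 1.80 and 2.35 (limma adjusted p = 6.46e-05, 5.34e-06 and 1.40e-05). The second Fads1 probe set above the filter differed by -0.25. Fasn, Elovl6 and Scd1 differed by 0.11, 0.93 and 0.19 with all arrays, and were called higher without CM replicate 1 at 1.78, 2.68 and 1.93. Ebp (0.85) and Mvk (0.56) passed the limma adjusted p (0.000495 and 0.0381) but not the minimum. Without CM replicate 1 Mvk did not pass (limma adjusted p = 0.0835). Fdft1 (0.38), Ggps1 (-0.24), Pmvk (0.25), Dhcr7 (0.40), Tm7sf2 (0.36), Acly (-0.04), Acaca (-0.22) and Srebf1 (-0.27) did not pass.

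Genes around these pathways followed other patterns. In a list of 20 further fatty acid and glycerolipid synthesis genes, 7 were higher and 0 lower in CiCM against MEF (11.6% and 12.2% of all tested genes), with a median of 0.17. The 3 highest were Mlxipl, a carbohydrate-sensing lipogenic factor (5.15), Acacb, the carboxylase form that restrains mitochondrial fatty acid entry (3.89), and Acss2, which activates acetate (2.88, limma adjusted p = 2.01e-06). The MEF signals of Mlxipl and Acacb averaged 2.93 and 3.62, under the filter line of 6.58, and with 32 added to the linear signals their differences were 2.72 and 2.13. Acacb then ranked below Lpin1, a phosphatidic acid phosphatase gene (2.42). In CM 9 of the 20 were higher than in MEF and 6 lower (22.1% and 21.8% of all tested genes), with a median of 0.78 against -0.03 over all tested genes. Acacb (8.39), Mlxipl (7.20) and Thrsp, a lipogenic nuclear protein (5.07), had the highest differences, at 6.40, 4.65 and 4.18 with 32 added, but the MEF mean of Thrsp (5.15) was under the filter line too. Dgat2, which completes triglycerides, was measured above the line in both groups, at means of 13.20 in CM and 8.44 in MEF, and with 32 added its difference of 4.63 passed that of Thrsp. Fads3 (-2.02), Aacs, which activates acetoacetate (-1.98), and Slc25a1, the mitochondrial citrate carrier (-1.86), were lowest. CM replicate 1 was the highest CM array for Aacs and Slc25a1 too, and without it they differed by -2.78 and -2.77. Thrsp was also highest there (12.14, against 9.21 and 9.32). Without that array Thrsp differed by 4.12, below Dgat2 at 4.79.

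Of 12 further sterol synthesis and SREBP control genes 8 were measured. Lbr, a sterol reductase of the nuclear envelope, was called lower in CiCM than in MEF (-1.11, limma adjusted p = 3.47e-06), and Coq2, which attaches the tail of coenzyme Q, higher in CM than in MEF (1.55, limma adjusted p = 8.19e-07). Insig2, the partner of Insig1 that SREBP does not drive, was not called in either comparison (0.47 in CiCM and 0.75 in CM). The proteases that release SREBPs, Mbtps1 and Mbtps2, differed by -0.81 and -0.39 in CiCM and by -0.69 and -0.85 in CM, under the minimum. Of 18 genes of cholesterol uptake, movement, storage and export 15 were measured. Cyp27a1, a sterol hydroxylase, was higher in CiCM (1.16), and Ch25h, which makes an oxysterol that restrains SREBP processing, and Apoe were lower (-3.25 and -1.07). With 32 added to the linear signals they differed by 0.97, -3.06 and -1.05, so Cyp27a1 then missed the minimum difference. In CM 4 of the 15 were called higher (26.7%) and 3 lower (20%), against 22.1% and 21.8% of all tested genes. The higher ones included the oxysterol receptor gene Nr1h3 (3.32, against a MEF mean of 4.64 under the filter line), Cyp27a1 (3.17) and the lipoprotein receptor gene Vldlr (2.28). With 32 added these differences were 2.06, 2.85 and 2.27. The lower ones were Ch25h (-3.95), Npc2 (-1.57) and Lrp1 (-1.41). Ch25h stood at 7.44, 7.85 and 7.52 in CiCM, 6.85, 6.81 and 7.06 in CM and 10.87, 10.86 and 10.85 in MEF, low in both muscle groups.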

How the data were processed

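Deposited values were log2 signals of 45101 probe sets on 9 one-colour arrays. The authors used MAS5, per the submitters' processing notes, with no version. The log2 scale is read from the values: back on the linear scale, the mean without the outer 2% at each end was 500.003 on every array. Nothing was added or rescaled. Genome build, scan dates and detection calls are not given in the sources used here, and batch and group cannot be told apart.

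GEO's platform annotation gave 34945 probe sets 1 symbol, 932 several and 9160 none, with 64 controls. A gene needed at least 1 group mean of 6.58, the median of all values, which left out 5634 of 18193. Differences were tested with limma 3.58.1 in R 4.3.3 (lmFit, eBayes with a variance trend, 2-sided), all 9 arrays in 1 fit, with Benjamini-Hochberg adjustment over 12559 genes. The fit was checked on simulated data. With 3 arrays a group, the smallest exact permutation p is 0.1.

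All members are named; other lipid genes are named up to 3 per direction and list by size of difference, with Insig2, Mbtps1, Mbtps2, Lpin1 and Dgat2 added after their values were seen. Members, lists and tests were chosen with earlier results of these data known. Alternatives were other constants, filters, scalings, probe set averages, variance models, a replicate block and left-out arrays. Same-numbered arrays correlated at -0.016 to 0.067 in their deviations, so numbers were not used as pairs. Figures used matplotlib 3.10.9.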

Additional observations from a re-analysis of the deposited data

How the results depend on the processing

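Of the differences of single genes under each alternative and left-out array, 633 of 647 (CiCM against MEF), 625 of 647 (CM against MEF) and 617 of 647 (CiCM against CM) kept their side of the thresholds. With probe sets averaged Scap lost its calls and its differences changed sign, at -0.59 (CiCM against CM, adjusted p = 0.228) and 0.58 (CM against MEF, adjusted p = 0.227), where a dim second probe set enters. For CiCM against MEF, 1 gene was called higher with quantile normalization or with only those groups fitted, 1 lower with probe sets averaged (Msmo1, -1.84, from a dim probe set), and 5 higher and 1 lower with no minimum difference. With CM replicate 1 also left out, chosen after seeing the data, 9 were higher and 6 lower, against 0 lower and 0 higher at the stated rule; for CM against MEF 24 were then lower (37.3% of tested genes). Left-out arrays gave 0 to 1 higher and 0 to 0 lower (median -0.04 to 0.10), in CM against MEF 14 to 20 lower and 0 to 0 higher (median -1.23 to -0.81), in CiCM against CM 15 to 21 higher and 0 to 0 lower (median 0.99 to 1.76). With probe sets averaged, CiCM against CM had 11 in place of 18 genes higher. The median difference for CiCM against MEF was -0.08 with the filter at the 75th percentile (27 genes left), against -0.03 over all tested genes. With arrays levelled on controls it was -0.20, against -0.27 over all tested genes. Levelled arrays also gave 1.68 (CiCM against CM) and -1.84 (CM against MEF), against 0.58 and -0.88 over all tested genes. Over all genes, 2987, 5515 and 4462 were called in CiCM against MEF, CM against MEF and CiCM against CM. With no minimum difference these were 6529, 8790 and 8089, with the larger constant added 1900 for CiCM against MEF, and with arrays left out 2788 to 3075, 5347 to 5695 and 4303 to 4609. For CiCM against CM, 75% in place of 46.5% of calls were higher with arrays levelled on controls and 62.9% with arrays centred, where CM against MEF had 34.6%, and CiCM against MEF had 35.3% in place of 48.6% when levelled. With the replicate block 2978, 5508 and 4434 genes were called and every member kept its call, and the numbers pair no samples in the labels. Signal over background limits Elovl6, Cyp51 and Lss in CM, where single arrays lay under the filter line of 6.58.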
